A study of Mus musculus with 9 samples.

Results

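The genes described here are 45 genes of the urea cycle and of amino acid metabolism in mouse liver, chosen by name for 11 routes. The rule was that the gene symbol had to be in the list and above 0 in at least 1 liver. All 45 listed genes met it, out of 23183 gene symbols in the tables. RNA-seq was carried out on 9 livers of male C57BL/6J mice at postnatal day 100, with 1 library per mouse and 3 mice per group. ND mice ate a normal diet with 14% of its energy from fat, 21% from protein and 65% from carbohydrate. HFD mice ate a high-fat diet for 10 weeks (60% fat, 20% protein and 20% carbohydrate). PRF 50 mice ate the same high-fat diet and received 50 mg/kg of PRF orally each day over the last 5 weeks. PRF is a hexane fraction of leaves of Jinkyool (Citrus sunki), a citrus tree, and is rich in polymethoxyflavones such as nobiletin, tangeretin and sinensetin. The mice were fasted for 8 h. The normal and high-fat diets came from different makers, so fat content and other ingredients cannot be told apart, and whether ND and HFD mice received the vehicle of PRF is not stated in the sources used here.

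The liver breaks down most amino acids that the body does not use for protein. Their carbon enters glucose or energy metabolism, and their nitrogen is joined into urea by the urea cycle, which runs mainly in the hepatocytes near the portal vein. Fasting, glucagon and glucocorticoids are known to raise many genes of these routes in liver, and insulin is known to lower several of them. The liver also makes some amino acids, and the enzymes of serine and asparagine synthesis are known to be low in the fed adult liver.

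Levels are given as log2(FPKM + 1), where FPKM is fragments per kilobase of transcript, scaled to the mapped fragments of each library. The values were deposited on a log2 scale, and the added 1 is inferred from their exact zeros. This is a length-corrected unit, so levels of different genes can be set side by side. Values are listed for ND mice 6, 7 and 9, for HFD mice 1, 2 and 3 and for PRF 50 mice 3, 9 and 10, in that order. These numbers name animals and do not pair them across groups. Total read counts were not analysed here. The ratio at which low FPKM values recurred between libraries put the relative depth at 1.06, 1.15 and 1.11 for ND, 1, 1.17 and 1.596 for HFD and 0.981, 1.51 and 0.963 for PRF 50, with HFD mouse 1 set to 1. The deepest libraries were therefore HFD mouse 3 and PRF 50 mouse 9. Between 14372 and 14980 genes were above 0 in each liver. HFD mouse 2 stood apart in 1 gene, the small nuclear RNA Rnu6, which read 22.44 there and 0 in the other 8 livers. The next highest value of that mouse was 14.40, and the highest values of the other livers were 14.10 to 14.64. The highest gene of ND mouse 9, Snord49a, was likewise at 0 in the other 8 livers, and read 14.51 in that mouse.

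Most of these genes were among the abundant transcripts of the liver. A mean above 100 FPKM over all 9 livers was found for 28 of the 45 genes, 15 lay between 1 and 100 FPKM, and 2 were below 1 FPKM. Bhmt (betaine-homocysteine methyltransferase, which remethylates homocysteine) had the highest mean, 1858 FPKM, and ranked 39 among all gene symbols. Gnmt and Hpd ranked 45 and 51. The genes at the low end were Asns (1.66 FPKM), Psat1 (0.288 FPKM) and Phgdh (0.0776 FPKM), all enzymes that make amino acids and do not break them down. Phgdh, the first enzyme of serine synthesis, read 0.066, 0.18 and 0.18 in ND, 0.070, 0.060 and 0.044 in HFD and 0.26, 0.091 and 0 in PRF 50 mice on the log2(FPKM + 1) scale, and the groups overlapped.

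**Figure D1:**
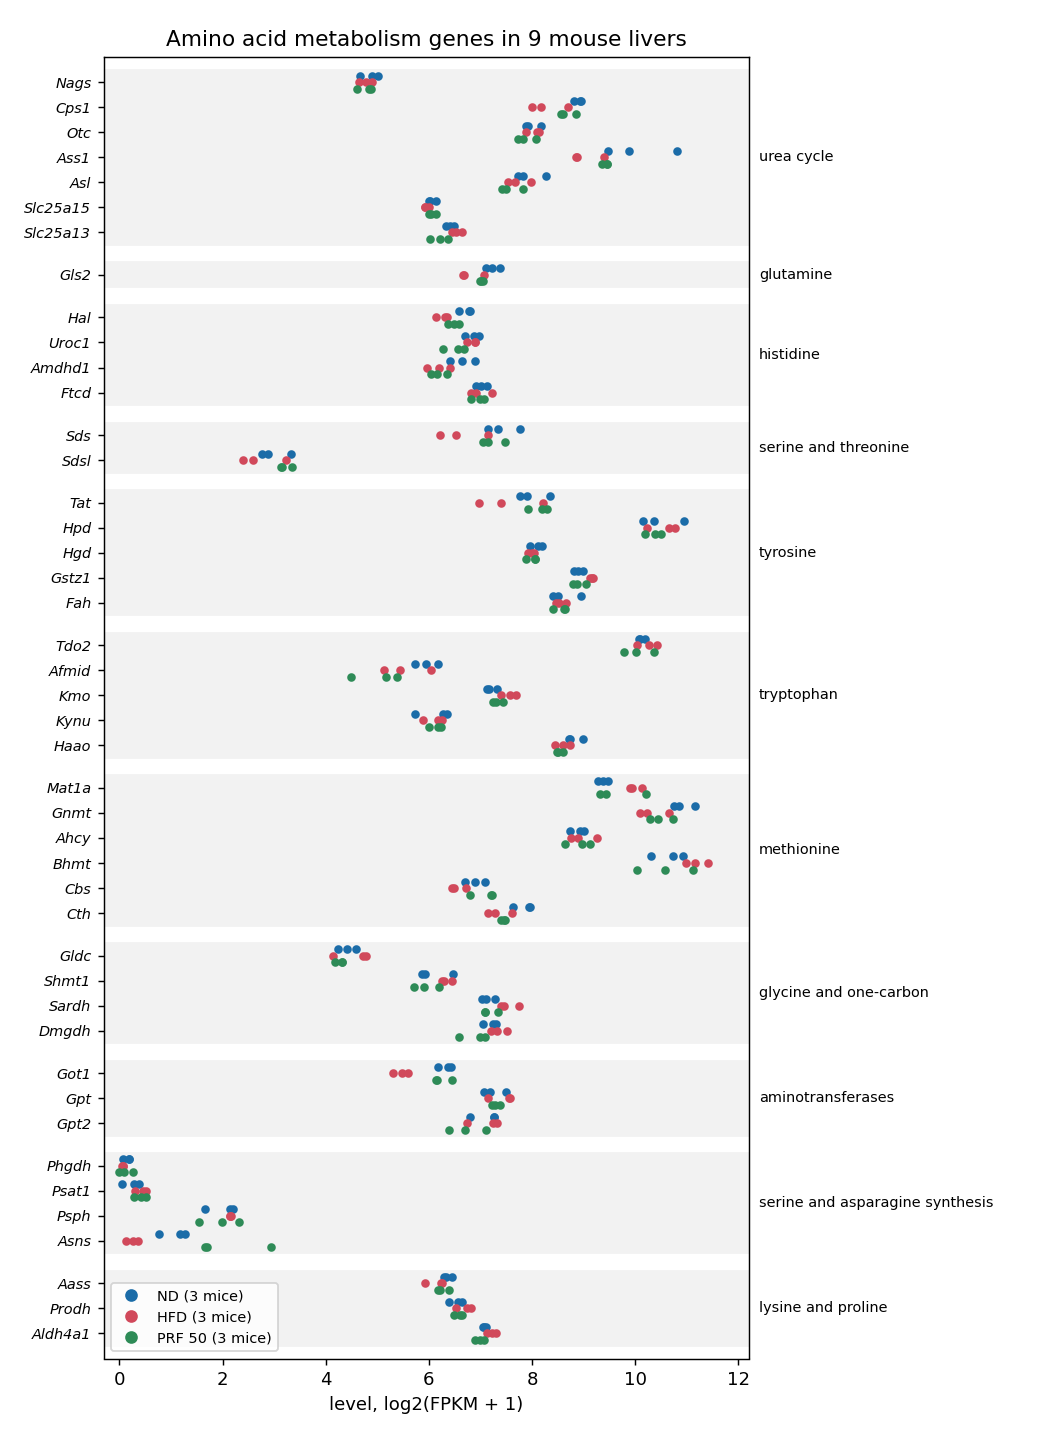
Level of 44 of the 45 genes on a log2(FPKM + 1) axis, with 1 point per mouse and a colour for each of the ND, HFD and PRF 50 groups (3 mice each). Phgdh, Psat1, Psph and Asns sit below 3 in all livers, and the HFD points of Got1 lie apart from those of both other groups.

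Differences between groups were tested with limma over all genes that averaged 1 FPKM or more in the 6 mice compared, and p values were adjusted over all of them by the Benjamini-Hochberg method. A gene was called at an adjusted p under 0.05. HFD was compared with ND to describe the diet, PRF 50 with HFD to describe PRF given on that diet, and PRF 50 with ND to describe where the treated livers stood against the normal diet. HFD mice enter the first and second comparison, so a value that is low in HFD mice alone appears in both.

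Between HFD and ND, 42 of the 45 genes were tested. Got1 was called lower (1 gene, 2.38% of those tested, against 0.631% of all 9978 genes) and 0 genes were called higher (0.702% of all genes). At an unadjusted p under 0.05, 10 of the 42 genes were lower (23.8%) and 4 were higher (9.52%), against 7.26% and 7.82% of all genes. The 10 lower genes were Cps1, Ass1, Gls2, Hal, Amdhd1, Sds, Gnmt, Cbs, Cth and Got1, which lie in 6 different routes. Of them, 9 did not pass the adjusted threshold. By an unadjusted p under 0.05 together with a fold change above 2, 1 gene (Ass1) was found, where 1.34% of all genes were.

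Between PRF 50 and HFD, 43 genes were tested. Got1 and Asns were called higher (2 genes, 4.65%, against 1.43% of all 10084 genes) and 0 genes were called lower (2.16% of all genes). Asns passed the minimum through the PRF 50 group alone (mean 3.66 FPKM, against 0.194 FPKM in HFD mice). Its place in the counts of this paragraph is therefore a description, and the share of 4.65% is not to be read against that of all genes. At an unadjusted p under 0.05, 4 genes were higher (9.3%: Asns, Cbs, Got1 and Sds) and 6 were lower (14%: Aldh4a1, Dmgdh, Sardh, Shmt1, Slc25a13 and Uroc1), close to the 8.47% and 11.8% of all genes. Asns was also the single gene with an unadjusted p under 0.05 and a fold change above 2, where 2.1% of all genes were.

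Between PRF 50 and ND, limma called 0 of 43 genes in either direction (0.159% of all 10051 genes were higher and 0.298% lower). At an unadjusted p under 0.05, 1 gene (Asns) was higher and 5 (Afmid, Amdhd1, Cth, Gnmt and Uroc1, 11.6%) were lower, against 6.06% and 6.44% of all genes. Asns was again the single gene that also had a fold change above 2 (1.76% of all genes). The median log2 fold change over the tested members was -0.048 in the diet comparison, -0.061 between PRF 50 and HFD and -0.086 between PRF 50 and ND, and over all tested genes it was -0.0091, -0.015 and -0.031. Over 12 alternatives (other filters, scales and fits, and single mice left out) the median of the members ranged from -0.10 to 0.0064, from -0.12 to 0.011 and from -0.15 to 0.0087, so its sign depended on the setting in every comparison.

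**Figure D2:**
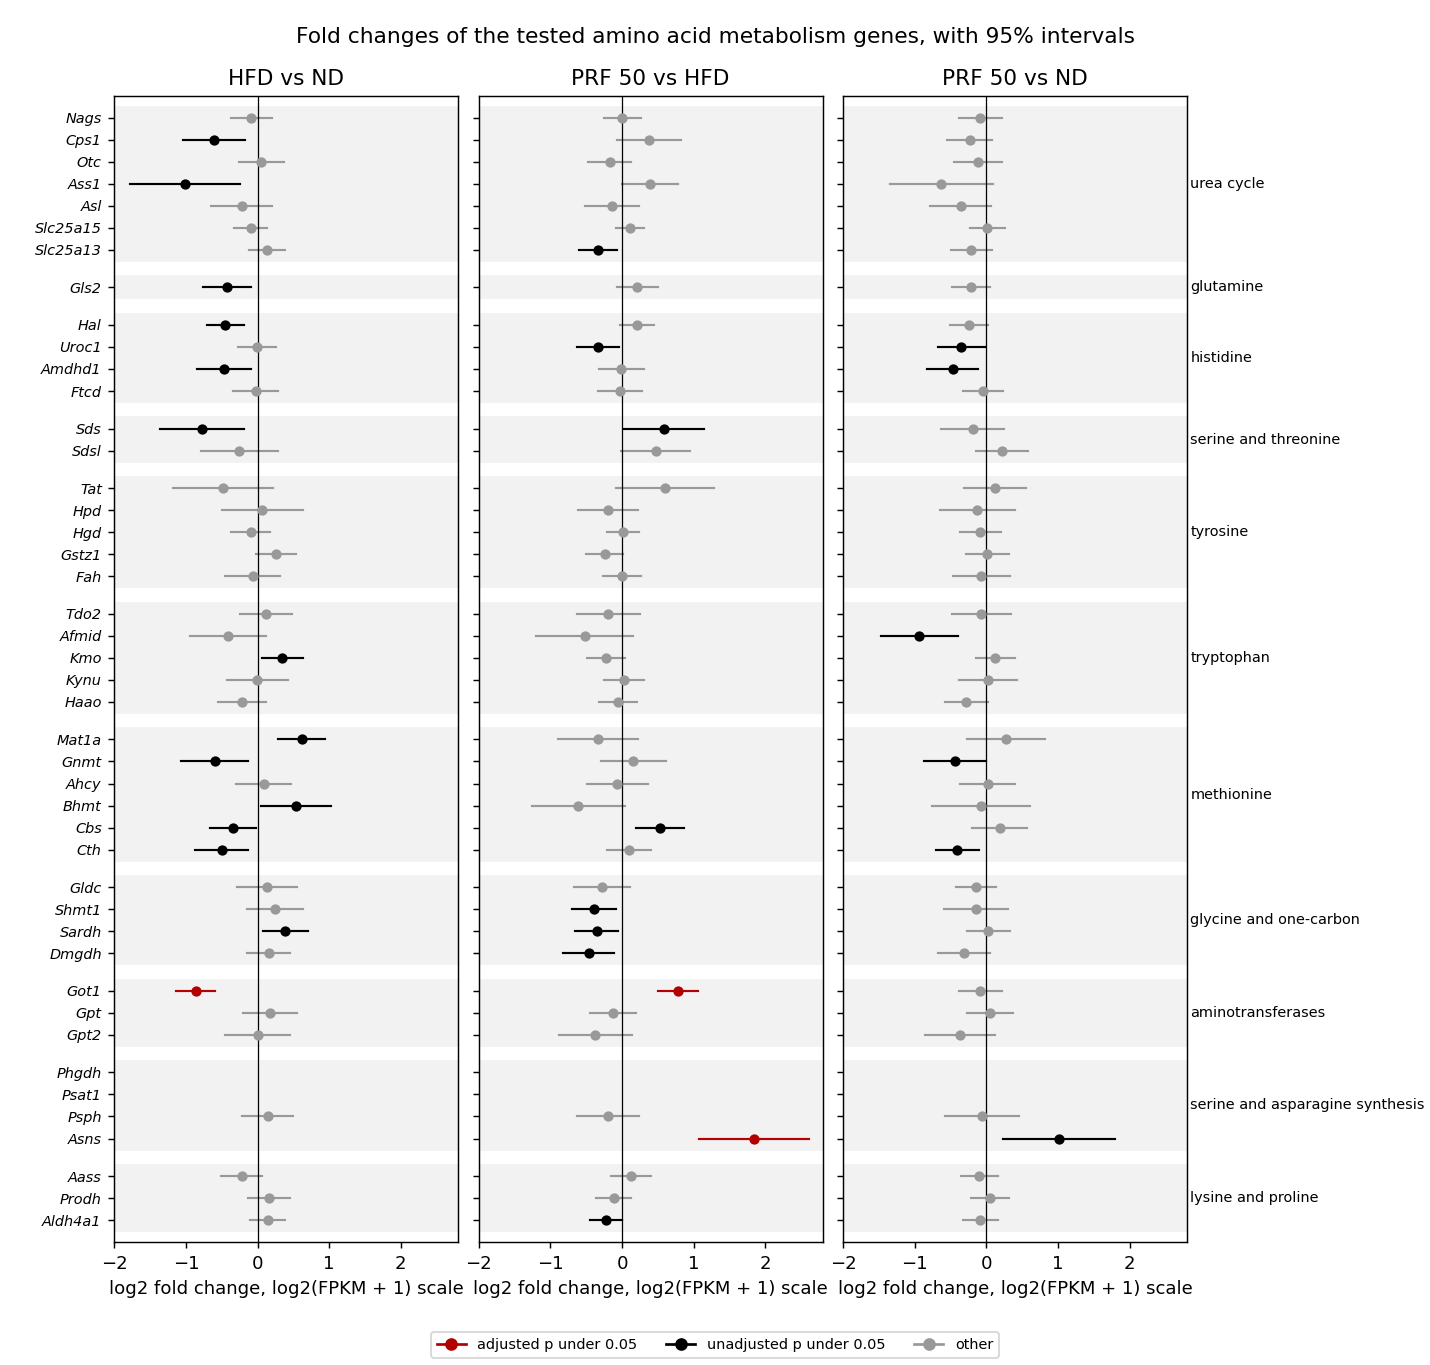
Log2 fold change of the tested genes, apart from 1 that is not shown, on the log2(FPKM + 1) scale in the 3 comparisons, with bars for the 95% interval. Red marks an adjusted p under 0.05 and black an unadjusted p under 0.05 alone, and Got1 is the one gene in red in both the HFD vs ND and the PRF 50 vs HFD panels, with opposite signs, and no gene is red in the PRF 50 vs ND panel.

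Got1 (chr19:43499752-43524605, minus strand, build GRCm38) encodes the cytosolic aspartate aminotransferase, which passes nitrogen between aspartate and glutamate and takes part in the malate-aspartate shuttle. It was lower in HFD livers than in both other groups. Its level was 6.38, 6.17 and 6.42 in ND mice, 5.47, 5.59 and 5.31 in HFD mice and 6.13, 6.44 and 6.16 in PRF 50 mice, and every HFD mouse lay below every mouse of the other groups. In linear units the group means were 79.3, 43.1 and 75.0 FPKM. Got1 fell by 0.87 on the log2 scale from ND to HFD (95% interval -1.14 to -0.59, adjusted p = 0.0208). It was higher by 0.78 in PRF 50 than in HFD mice (95% interval 0.50 to 1.06, adjusted p = 0.0249). PRF 50 and ND mice overlapped, with a log2 fold change of -0.083 (95% interval -0.38 to 0.22, adjusted p = 0.817), an interval that leaves room for a difference in either direction, and the sign of this value turned under quantile normalization (0.052). In a whole liver sample, fewer cells of a type and less RNA per cell cannot be told apart.

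With groups of 3, the Got1 calls depended on single mice, although its direction did not. In the HFD vs ND comparison the adjusted p passed 0.05 without HFD mouse 2 (0.0588), HFD mouse 3 (0.0952), ND mouse 6 (0.0535) or ND mouse 7 (0.0514), and with no minimum level (0.0505). In the PRF 50 vs HFD comparison it did so without HFD mouse 1 (0.0502), HFD mouse 2 (0.069), HFD mouse 3 (0.0817) or PRF 50 mouse 3 (0.0558). Over all 12 alternatives the adjusted p ranged from 0.0123 to 0.0952 and from 0.0133 to 0.0817, and the log2 fold change from -0.94 to -0.79 and from 0.69 to 0.90.

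Asns (chr6:7675169-7693254, minus strand) encodes asparagine synthetase, which makes asparagine from aspartate and glutamine and is known as a target of the cell's response to a shortage of amino acids. Its level was low in all livers. It read 1.18, 0.77 and 1.28 in ND mice, 0.36, 0.27 and 0.12 in HFD mice and 1.65, 2.93 and 1.69 in PRF 50 mice. The 3 groups did not overlap, with HFD mice lowest and PRF 50 mice highest, and PRF 50 mouse 9 stood well above its group. In linear units the PRF 50 mice had 2.14, 6.62 and 2.23 FPKM and the HFD mice 0.287, 0.205 and 0.0898 FPKM. Asns was higher by 1.84 in PRF 50 than in HFD mice (95% interval 1.07 to 2.61, adjusted p = 0.0342). On the log2(FPKM + 1) scale the change of so low a gene is understated, and with a pseudocount of 0.1 it was 3.54.

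The Asns call depended on the minimum level and on single mice. Asns passed the minimum through the PRF 50 group, where it was high, so a gene tested in this way had to differ, and its place among the called genes is given as a description. With no minimum level its adjusted p was 0.0749, under a minimum of 10 FPKM and without PRF 50 mouse 9 it was not tested, and without any one of the other 5 mice its adjusted p lay between 0.0513 and 0.115. Over the 10 alternatives in which it was tested the log2 fold change was 1.77 to 3.54 and the adjusted p 0.0157 to 0.115. In the PRF 50 vs ND comparison its log2 fold change was 1.02 (95% interval 0.24 to 1.80, adjusted p = 0.277) and was not called. Without PRF 50 mouse 9 it was 0.60, less than a 2-fold change. Between HFD and ND it was below the minimum. With no minimum level, that log2 fold change was -0.82 (95% interval -1.17 to -0.48, adjusted p = 0.1).

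The promoter windows of Got1 and Asns are shown because these were the members called between PRF 50 and HFD. RefSeq windows of 300 bases, from 250 before to 50 after the start, were found for 35 of the 45 genes (build GRCm38.p6). They were searched on both strands for TGATGNAA, the core letters of the C/EBP-ATF response element, through which factors of the ATF4 family are known to act on Asns. This was the one motif searched, and it was chosen after the windows of these genes had been read. It was present in 2 of the 35 members with a window (5.71%), Got1 and Asns, and in 4.51% of all 27025 genes with a window. A match of these letters is a description of the sequence and not evidence that a protein binds there. The Got1 run covers the 250 bases before the start at chr19:43524606-43524855 on the minus strand. The Asns run is the 30 bases around the match at chr6:7693214-7693243 on the minus strand. It lies before the RefSeq start but inside the first exon of the GENCODE gene, whose start is 45 bases further upstream. Both are written 5′ to 3′, with the match in capitals. In Got1 the match begins 102 bases before the start and is on the opposite strand, so that it reads TTGCATCA. In Asns it begins 23 bases before the RefSeq start.
Got1: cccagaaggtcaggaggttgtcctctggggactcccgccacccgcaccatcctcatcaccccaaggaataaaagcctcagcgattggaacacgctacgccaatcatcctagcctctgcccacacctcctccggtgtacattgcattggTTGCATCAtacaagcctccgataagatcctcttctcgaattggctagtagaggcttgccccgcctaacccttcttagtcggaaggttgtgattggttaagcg
Asns: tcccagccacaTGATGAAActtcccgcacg

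The list of 24 genes of the response to amino acid shortage was read beside this. It holds transcription factors of that response (Atf4, Atf5, Ddit3), genes they are known to act on (Trib3, Chac1, Sesn2) and aminoacyl-tRNA synthetases. None of its tested genes was called by limma (0 of 21 between HFD and ND, 0 of 21 between PRF 50 and HFD and 0 of 20 between PRF 50 and ND, with 5, 2 and 5 genes at an unadjusted p under 0.05, which are 23.8%, 9.52% and 25% of them). Of all tested genes, 15.1%, 20.2% and 12.5% had such a p value in these comparisons. The 2 genes between PRF 50 and HFD were both lower in PRF 50 mice, unlike Asns. They were Ddit3 (-0.31, adjusted p = 0.209) and Fgf21 (-1.35, adjusted p = 0.151). Fgf21 passed the minimum through the HFD group alone (mean 3.44 FPKM, against 0.645 FPKM in PRF 50 mice), so its value is a description. The median log2 fold change over the list was -0.038, 0.029 and -0.011. It ranged over the alternatives from -0.13 to -0.012, from -0.00079 to 0.097 (the latter with quantile normalization) and from -0.039 to 0.048, with a turned sign under quantile normalization (0.043) in the last. Atf4 mRNA, chosen here after its values were seen, read 5.92, 5.56 and 5.28 in ND, 5.13, 4.99 and 4.91 in HFD and 5.01, 5.11 and 5.06 in PRF 50 mice. Its HFD and PRF 50 mice overlapped and both lay below the ND mice, with log2 fold changes of -0.57 (adjusted p = 0.169) for HFD vs ND and 0.048 (adjusted p = 0.808) for PRF 50 vs HFD.

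The urea cycle list had 8 genes, all tested, and none was called. Its log2 fold changes ran from -1.02 to 0.13 for HFD vs ND, with 6 of 8 negative (5 of 8 with quantile normalization). For PRF 50 vs HFD they ran from -0.34 to 0.39, with 5 of 8 positive. Cps1, the mitochondrial enzyme that commits ammonia to the cycle, read 8.82, 8.95 and 8.94 in ND, 8.69, 8.004 and 8.17 in HFD and 8.55, 8.60 and 8.86 in PRF 50 mice. HFD mice 2 and 3 lay well below the ND mice and HFD mouse 1 lay close to them. The log2 fold change was -0.61 (95% interval -1.04 to -0.18, adjusted p = 0.191) for HFD vs ND and 0.38 (95% interval -0.068 to 0.83, adjusted p = 0.325) for PRF 50 vs HFD. Without HFD mouse 1, Cps1 was called lower in HFD than in ND mice (-0.81, adjusted p = 0.0462, in a range over its alternatives of 0.0462 to 0.507).

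Ass1, which joins citrulline to aspartate, had the largest absolute log2 fold change of the members between HFD and ND. It read 10.81, 9.87 and 9.47 in ND, 9.40, 8.84 and 8.86 in HFD and 9.45, 9.46 and 9.36 in PRF 50 mice. ND mouse 6 was far above the rest, and the lowest ND mouse was just above the highest HFD mouse. The log2 fold change was -1.02 (95% interval -1.79 to -0.25, adjusted p = 0.218) for HFD vs ND and 0.39 (adjusted p = 0.251) for PRF 50 vs HFD. Without ND mouse 6 the first value was -0.64, less than a 2-fold change. Of the other genes, Nags (which makes the activator of Cps1), Otc and Asl, enzymes of the cycle, and the mitochondrial carriers Slc25a15 and Slc25a13, had log2 fold changes between -0.22 and 0.13 for HFD vs ND. In the PRF 50 vs HFD comparison they lay between -0.34 and 0.11, with the lowest at Slc25a13 (adjusted p = 0.154).

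Gls2, the liver glutaminase, which releases ammonia from glutamine for the cycle, read 7.38, 7.22 and 7.10 in ND, 7.06, 6.66 and 6.68 in HFD and 7.05, 7.01 and 6.98 in PRF 50 mice. All HFD mice lay below all ND mice, and HFD mouse 1 lay above the PRF 50 mice. The log2 fold changes were -0.43 (adjusted p = 0.229) for HFD vs ND, 0.21 (adjusted p = 0.393) for PRF 50 vs HFD and -0.22 (adjusted p = 0.484) for PRF 50 vs ND, so none was called.

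The histidine route had 4 genes, which act in sequence from Hal (histidine ammonia-lyase, the first step) through Uroc1 and Amdhd1 to Ftcd. All 4 log2 fold changes were negative for HFD vs ND (-0.46 to -0.010) and for PRF 50 vs ND (-0.47 to -0.051), and none was called. With quantile normalization 3 of the 4 were negative in each of these comparisons. Hal read 6.77, 6.79 and 6.59 in ND, 6.31, 6.14 and 6.34 in HFD and 6.57, 6.36 and 6.49 in PRF 50 mice. Its 3 groups did not overlap: ND mice were highest, PRF 50 mice between, and HFD mice lowest. For Hal the log2 fold change was -0.45 (adjusted p = 0.125) for HFD vs ND and 0.21 (adjusted p = 0.297) for PRF 50 vs HFD. Amdhd1 read 6.90, 6.65 and 6.41 in ND, 6.41, 5.97 and 6.19 in HFD and 6.34, 6.04 and 6.16 in PRF 50 mice, so that the HFD and PRF 50 mice overlapped and both lay below the ND mice. Its log2 fold change was -0.46 (adjusted p = 0.245) for HFD vs ND and -0.47 (adjusted p = 0.265) for PRF 50 vs ND. The PRF 50 vs HFD value was -0.0077, with a sign that turned under quantile normalization (0.11) and without HFD mouse 1, PRF 50 mouse 9 or PRF 50 mouse 10.

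Sds (serine dehydratase, which turns serine into pyruvate) and Sdsl (a related enzyme) formed the serine and threonine route. Sds read 7.76, 7.13 and 7.33 in ND, 7.15, 6.53 and 6.21 in HFD and 7.47, 7.14 and 7.04 in PRF 50 mice. HFD mouse 1 lay within the range of the ND mice and HFD mice 2 and 3 lay below it, so the groups overlapped. For Sds the log2 fold change was -0.78 (95% interval -1.36 to -0.19, adjusted p = 0.217) for HFD vs ND and 0.59 (95% interval 0.030 to 1.15, adjusted p = 0.224) for PRF 50 vs HFD. Neither was called. For Sdsl the same values were -0.26 (adjusted p = 0.649) and 0.47 (adjusted p = 0.258). Without HFD mouse 1, whose Sdsl level (3.23) was in the range of the PRF 50 mice (3.13 to 3.34), Sdsl was called higher in PRF 50 than in HFD mice (0.72, adjusted p = 0.0423, in a range over its alternatives of 0.0423 to 0.522).

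The tyrosine route (Tat, Hpd, Hgd, Gstz1 and Fah) runs from tyrosine to fumarate and acetoacetate. None of its 5 genes was called in any comparison, and apart from Tat their log2 fold changes lay between -0.10 and 0.26 for HFD vs ND and between -0.24 and 0.013 for PRF 50 vs HFD. Tat (tyrosine aminotransferase, the first step and a classical glucocorticoid-induced gene) read 8.35, 7.76 and 7.91 in ND, 8.20, 6.97 and 7.41 in HFD and 8.18, 8.30 and 7.91 in PRF 50 mice. The HFD mice spread most: mouse 1 lay in the range of the ND mice, and mice 2 and 3 lay below all others. For Tat the log2 fold change was -0.48 (95% interval -1.18 to 0.22, adjusted p = 0.512) for HFD vs ND and 0.60 (95% interval -0.081 to 1.29, adjusted p = 0.307) for PRF 50 vs HFD. These values were -0.82 and 0.94 without HFD mouse 1, and -0.20 and 0.33 without HFD mouse 2.

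The tryptophan route leads by way of kynurenine toward NAD. Tdo2, its first enzyme in liver, read 10.10, 10.07 and 10.20 in ND, 10.43, 10.03 and 10.26 in HFD and 10.01, 9.78 and 10.37 in PRF 50 mice and overlapped between all groups. Its log2 fold change was 0.12 (adjusted p = 0.768) for HFD vs ND and -0.19 (adjusted p = 0.632) for PRF 50 vs HFD. Afmid, the kynurenine formamidase that acts next, read 6.18, 5.95 and 5.73 in ND, 6.04, 5.13 and 5.44 in HFD and 5.16, 4.50 and 5.38 in PRF 50 mice. All PRF 50 mice lay below all ND mice, and the HFD mice overlapped both. Its log2 fold change was -0.94 (95% interval -1.47 to -0.40, adjusted p = 0.152) for PRF 50 vs ND, the largest negative value of the members in that comparison, and -0.52 (adjusted p = 0.364) for PRF 50 vs HFD. When single mice were left out the latter ranged from -0.72 (without HFD mouse 2) to -0.27 (without PRF 50 mouse 9). Kmo, Kynu and Haao, the later steps, lay between -0.22 (Haao) and 0.35 (Kmo) for HFD vs ND and between -0.22 (Kmo) and 0.028 (Kynu) for PRF 50 vs HFD.

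The methionine route held values of both signs between HFD and ND, and 5 of its 6 genes had an unadjusted p under 0.05 there (15.1% of all genes did), but none was called. Mat1a, Gnmt and Ahcy make, use and clear S-adenosylmethionine and its product. Bhmt returns homocysteine to methionine, and Cbs and Cth carry it to cysteine. The log2 fold changes of Mat1a (0.61) and Bhmt (0.53) were positive, and those of Gnmt (-0.60), Cbs (-0.34) and Cth (-0.50) were negative. Ahcy was at 0.083.

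Mat1a, which makes S-adenosylmethionine in the adult liver, read 9.38, 9.28 and 9.46 in ND, 10.14, 9.89 and 9.94 in HFD and 9.42, 10.20 and 9.32 in PRF 50 mice. All HFD mice lay above all ND mice. PRF 50 mice 3 and 10 were in the ND range, and PRF 50 mouse 9 was above all HFD mice. The log2 fold change was 0.61 (95% interval 0.29 to 0.94, adjusted p = 0.1004) for HFD vs ND and -0.34 (95% interval -0.90 to 0.22, adjusted p = 0.480) for PRF 50 vs HFD. The latter was -0.62 without PRF 50 mouse 9 and -0.17 without PRF 50 mouse 10. With quantile normalization Mat1a was called higher in HFD than in ND mice (0.76, adjusted p = 0.0309, in a range over its alternatives of 0.0309 to 0.340).

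Gnmt, which uses S-adenosylmethionine to methylate glycine, read 11.16, 10.75 and 10.85 in ND, 10.64, 10.10 and 10.23 in HFD and 10.29, 10.73 and 10.44 in PRF 50 mice. All ND mice lay above all HFD mice and all PRF 50 mice. Its log2 fold change was -0.60 (adjusted p = 0.230) for HFD vs ND and -0.44 (adjusted p = 0.397) for PRF 50 vs ND. Bhmt read 10.73, 10.30 and 10.92 in ND, 10.99, 11.15 and 11.41 in HFD and 10.03, 11.12 and 10.57 in PRF 50 mice. The HFD mice lay above the ND mice, and the PRF 50 mice reached from below the ND mice into the HFD range. Its log2 fold change was 0.53 (adjusted p = 0.299) for HFD vs ND and -0.61 (95% interval -1.26 to 0.041, adjusted p = 0.280) for PRF 50 vs HFD, the latter being -0.34 without PRF 50 mouse 3 and -0.88 without PRF 50 mouse 9. Cbs was the uncalled member with the smallest adjusted p between PRF 50 and HFD, at 0.53 (95% interval 0.19 to 0.86, adjusted p = 0.0979), and all 3 PRF 50 mice lay above all 3 HFD mice.

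The glycine and one-carbon route (Gldc, Shmt1, Sardh and Dmgdh) handles glycine, sarcosine and dimethylglycine and passes their one-carbon units to folate. All 4 genes had positive log2 fold changes for HFD vs ND (0.13 to 0.39) and negative ones for PRF 50 vs HFD (-0.46 to -0.28), and none was called. These signs held with quantile normalization. The route median for PRF 50 vs HFD was -0.37, where that of all tested genes was -0.015. Gldc, of the glycine cleavage system, read 4.24, 4.59 and 4.40 in ND, 4.14, 4.72 and 4.78 in HFD and 4.31, 4.30 and 4.18 in PRF 50 mice, and its groups overlapped. Dmgdh had the lowest value of the route between PRF 50 and HFD, -0.46 (adjusted p = 0.148), and its PRF 50 mice lay below its HFD mice, as did those of Shmt1 and Sardh.

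Gpt and Gpt2, the other genes of the aminotransferase list, pass nitrogen between alanine and glutamate and were not called. For HFD vs ND their log2 fold changes were 0.17 (adjusted p = 0.664) for Gpt and 0.0033 (adjusted p = 0.996) for Gpt2. For PRF 50 vs HFD they were -0.13 (adjusted p = 0.657) and -0.37 (adjusted p = 0.403). Got2, the mitochondrial counterpart of Got1, is outside the 45 genes and was looked at after the values of Got1 were seen. It read 7.88, 7.73 and 7.63 in ND, 8.04, 7.98 and 8.06 in HFD and 7.72, 7.84 and 7.62 in PRF 50 mice, with log2 fold changes of 0.28 (adjusted p = 0.314) for HFD vs ND and -0.30 (adjusted p = 0.147) for PRF 50 vs HFD. Both were opposite in sign to those of Got1, and neither was called. Psph, the last step of serine synthesis, was at -0.20 (adjusted p = 0.602) for PRF 50 vs HFD, and Psat1 was below the minimum.

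The lysine and proline route had 3 genes, and none was called. Aass, the first enzyme of lysine breakdown, read 6.45, 6.34 and 6.29 in ND, 6.25, 5.93 and 6.24 in HFD and 6.22, 6.39 and 6.17 in PRF 50 mice. Prodh, the first of proline breakdown, read 6.57, 6.38 and 6.65 in ND, 6.74, 6.53 and 6.81 in HFD and 6.49, 6.64 and 6.60 in PRF 50 mice. HFD and ND mice overlapped for Prodh, whereas for Aass the HFD mice lay below the ND mice, with a log2 fold change of -0.22 (adjusted p = 0.463). The log2 fold changes of Aass, Prodh and Aldh4a1 lay between -0.22 and 0.16 for HFD vs ND and between -0.23 and 0.12 for PRF 50 vs HFD.

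The intervals give the precision of these values. The median width of the 95% interval on each side of the log2 fold change was 0.32 for PRF 50 vs HFD, 0.36 for HFD vs ND and 0.34 for PRF 50 vs ND. The interval lay wholly between -1 and 1 for 37 of 43, 35 of 42 and 40 of 43 tested genes. The median SD among mice of a group was 0.19 over the 43 of these genes that averaged 1 FPKM or more. It was 0.16 over all 10048 genes that did so. The added 1 narrows the spread of low genes, and most of the 43 genes were abundant. These medians thus stand at unlike levels and do not show that the 43 genes vary more. Among the 43 genes the SD was largest for Asns (0.45), Ass1 (0.44), Tat (0.42), Afmid (0.40), Bhmt (0.38) and Sds (0.36).

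Part of this spread followed single mice. ND mouse 6 was the highest of its group for 28 of these 43 genes and HFD mouse 1 for 27, whereas HFD mouse 2 was the lowest of its group for 27. In the PRF 50 group the highest mouse was mouse 9 for 21 genes, mouse 3 for 13 and mouse 10 for 9. Such counts were not made over all genes, so whether this order of mice is particular to these 43 genes is unknown. The mean level over the 43 genes was 7.40, 7.18 and 7.21 in ND mice, 7.26, 7.03 and 7.12 in HFD mice and 7.11, 7.22 and 7.12 in PRF 50 mice. That of all 10048 genes was between 3.44 and 3.47. A mean over so many normalized genes is bound to vary less, and no set of equally abundant genes was read. These ranges are therefore not a contrast between the 43 genes and others.

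**Figure D3:**
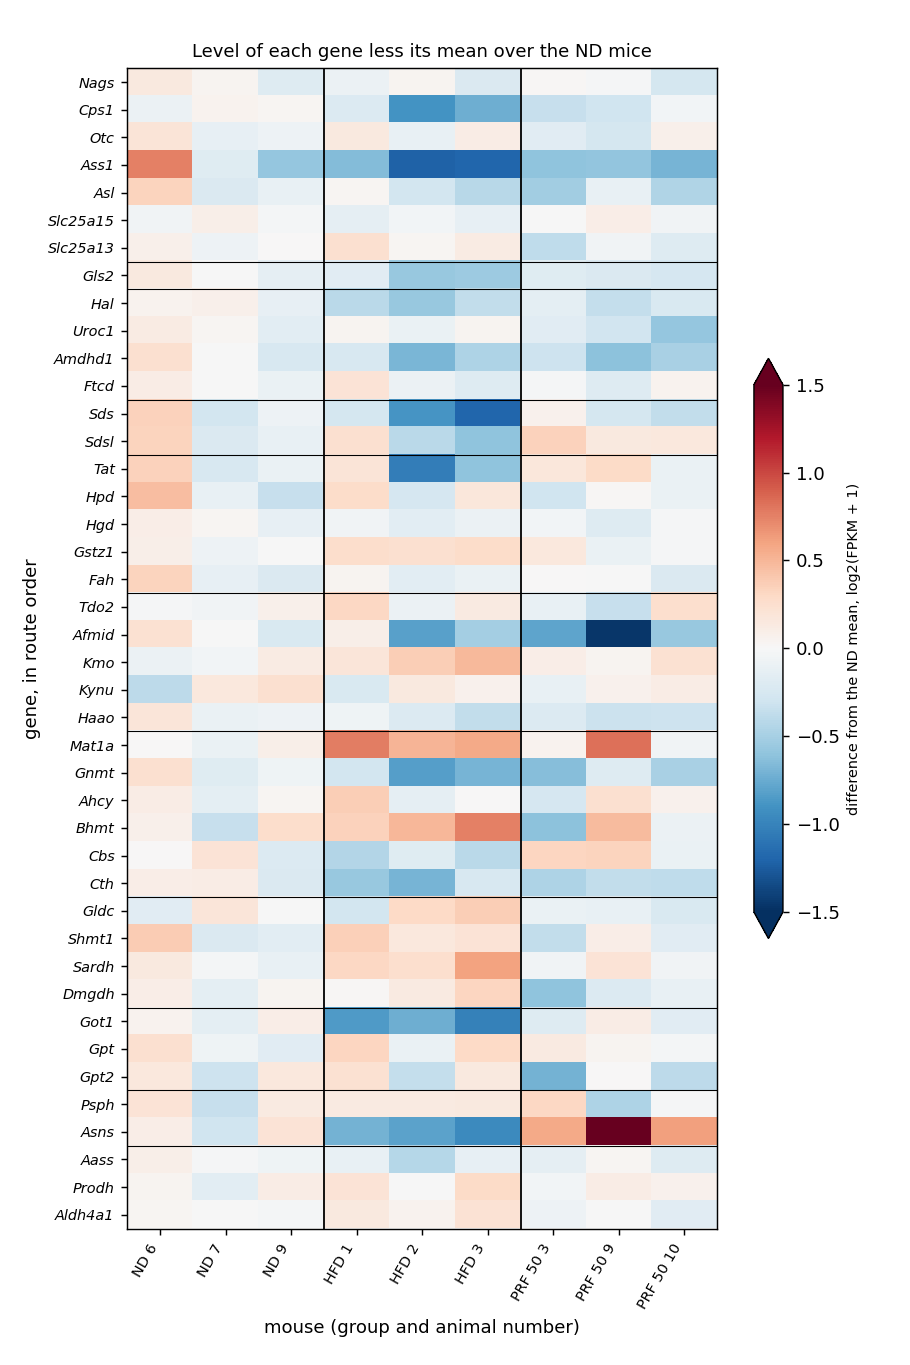
Level of 42 of the 43 genes that averaged 1 FPKM or more, less its mean over the ND mice, in every liver. Columns are mice, genes run down in route order, and colour gives the difference on the log2(FPKM + 1) scale, with values beyond 1.5 drawn in the end colours. Got1 and Asns are blue in all 3 HFD mice, and Tat and Sdsl are blue in HFD mice 2 and 3 but not in HFD mouse 1.

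Markers of other liver cells also differed between mice. The summed level of 8 Kupffer cell markers was lowest in ND mouse 6 and in HFD mouse 1 of their groups (60.3, 111 and 148 FPKM in ND, 71.2, 122 and 123 FPKM in HFD mice). It was 419, 252 and 275 FPKM in PRF 50 mice, above all other livers. Of these 8 markers, 7 were called higher in PRF 50 than in HFD mice (1.43% of all genes were), with a list median of 1.45. Marco was the exception, at 2.61 (adjusted p = 0.135). The most abundant of the 8 markers was Cd5l. Without HFD mouse 3, only 4 of all tested genes were called higher between PRF 50 and HFD, so the 7 calls did not all hold. These calls were not followed gene by gene over the alternatives. Against ND, limma called 0 of 8 in PRF 50 mice, although 8 of 8 had an unadjusted p under 0.05 and the median was 1.42. Between HFD and ND limma called 0 of 8, with 0 at an unadjusted p under 0.05. The 8 markers of sinusoidal endothelium, most of all Clec4g, summed to 68.2, 86.3 and 112 FPKM in ND, 26.7, 58.5 and 82.8 FPKM in HFD and 64.4, 61.8 and 105 FPKM in PRF 50 mice. None was called by limma, with 3 at an unadjusted p under 0.05 for HFD vs ND and 0 for the other comparisons. Of all tested genes, 20.2% (PRF 50 vs HFD), 15.1% (HFD vs ND) and 12.5% (PRF 50 vs ND) had such a p value. The marker counts here and in the next paragraph stand beside these shares. For HFD vs ND 7 of the 8 log2 fold changes were negative, and the median was -0.71 (-0.87 to -0.32 over the alternatives). The part of these cell types in the results for Got1, Asns and the other genes was not tested.

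Hepatocyte markers were abundant in all livers, most of all Apoa1. The 7 of 8 found in the data summed to 23877, 17936 and 17338 FPKM in ND and 23005, 18845 and 16073 FPKM in HFD mice. In PRF 50 mice the sums were 21745, 22157 and 20201 FPKM. ND mouse 6, HFD mouse 1 and PRF 50 mouse 9 had the highest sums of their groups. These mice were also most often the highest for the amino acid genes. The lowest sums, in ND mouse 9, HFD mouse 3 and PRF 50 mouse 10, were not in the mice most often lowest for those genes. The part of hepatocyte content in the results was not tested. None of the 6 tested hepatocyte markers was called by limma, with 2, 1 and 0 at an unadjusted p under 0.05 for PRF 50 vs HFD, HFD vs ND and PRF 50 vs ND. Transferrin, listed as Tf, stands in the data under its mouse symbol Trf (rank 11 among all gene symbols) and was not analysed here. Alb is listed at 0 in all 9 livers. For so abundant a gene an exact 0 can be a failed estimate, so no weight is put on other genes listed at 0. Of the adipocyte markers, Cidec, a lipid droplet protein that fatty hepatocytes also make, was the most abundant and read 1.85, 1.42 and 1.90 in ND, 1.99, 3.74 and 3.79 in HFD and 0.078, 0.90 and 0.36 in PRF 50 mice. All PRF 50 mice lay below all HFD mice, and it fell by 2.72 from HFD to PRF 50 (adjusted p = 0.0336). Its mean was 9.38 FPKM in HFD and 0.404 FPKM in PRF 50 mice, so it passed the minimum through the HFD group alone, and this call too is a description. The adipocyte markers summed to 3.25, 3.28 and 4.31 FPKM in ND and 3.56, 18.9 and 26.3 FPKM in HFD mice. In PRF 50 mice the sums were 0.267, 1.48 and 0.286 FPKM, so HFD mice 2 and 3 stood apart. Cfd read 0.66, 2.86 and 3.85 in HFD and 0.28, 0.69 and 0 in PRF 50 mice and was not called (-2.14, adjusted p = 0.155). Adipoq was above 0 in HFD mice 2 and 3 alone, and Retn in ND mouse 7 alone. Plin1 and Lep were listed at 0 in all livers. The part of adipocytes in the results was not tested. Of the markers of skeletal muscle (led by Mylpf) and kidney (Umod), 0 reached the minimum in any comparison, and of those of lymphocytes (Cd79b) only 1 did, between PRF 50 and ND, so almost nothing was tested there. The tested markers of stellate cells (Dcn), cholangiocytes (Spp1), neutrophils (S100a8), red cells (Hba-a1) and pancreas (Cela1) had 0 calls by limma, as had that 1 of lymphocytes. At an unadjusted p under 0.05 there were 3 of 15 for PRF 50 vs HFD, 2 of 15 for HFD vs ND and 3 of 16 for PRF 50 vs ND. The neutrophil markers summed to 2.73, 9.19 and 6.11 FPKM in ND, 4.30, 2.99 and 4.70 FPKM in HFD and 54.9, 17.2 and 3.61 FPKM in PRF 50 mice. Cpa1, Prss2 and Amy2a5 of pancreas and Kap and Slc12a1 of kidney were listed at 0 in all livers.

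Genes around the 45 were read from 7 related lists, of which the response to amino acid shortage is given above. Among 49 other amino acid enzymes, 41 were tested between PRF 50 and HFD, where 1 was called higher and 3 lower and 18 (43.9%) had an unadjusted p under 0.05. In the diet comparison 40 were tested, of which 1 was called higher and 3 lower and 15 (37.5%) had an unadjusted p under 0.05. Of all tested genes, 1.43% were called higher and 2.16% lower between PRF 50 and HFD, and 0.702% and 0.631% between HFD and ND, and the counts for the related lists below stand beside these shares. An unadjusted p under 0.05 was found for 20.2% of all tested genes between PRF 50 and HFD, 15.1% in the diet comparison and 12.5% between PRF 50 and ND. Acmsd, which draws a tryptophan product away from NAD synthesis, was the one called gene of this list with the pattern of Got1. It read 2.75, 2.43 and 2.72 in ND, 1.79, 1.76 and 1.87 in HFD and 2.67, 2.35 and 2.73 in PRF 50 mice, and all HFD mice lay below all others. It fell by 0.83 from ND to HFD (adjusted p = 0.0228) and was higher by 0.78 in PRF 50 than in HFD mice (adjusted p = 0.0250).

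Ddo, the D-aspartate oxidase, had the reverse pattern. It read 2.54, 2.41 and 2.52 in ND, 3.26, 3.37 and 3.16 in HFD and 2.58, 2.84 and 2.82 in PRF 50 mice, with all HFD mice above all others. It was higher by 0.77 in HFD than in ND mice (adjusted p = 0.0149) and fell by 0.52 from HFD to PRF 50 (adjusted p = 0.0462).

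Ethe1, a mitochondrial enzyme of sulfide oxidation, read 5.82, 5.75 and 5.44 in ND, 4.35, 4.57 and 4.51 in HFD and 4.16, 4.19 and 4.41 in PRF 50 mice. It fell by 1.19 from ND to HFD (adjusted p = 0.00770) and was lower by 1.42 in PRF 50 than in ND mice (adjusted p = 0.0107). All ND mice lay above all others, and between PRF 50 and HFD it was not called, at -0.23 (adjusted p = 0.285). Gcat, which acts in threonine breakdown, read 5.53, 5.23 and 5.22 in ND, 4.66, 4.43 and 4.44 in HFD and 4.66, 4.72 and 4.82 in PRF 50 mice and fell by 0.82 from ND to HFD (adjusted p = 0.0261), with all ND mice above all HFD mice. All its PRF 50 mice lay between these groups, and it was not called against ND, at -0.60 (adjusted p = 0.0914), or against HFD, at 0.23 (adjusted p = 0.244). Csad, which makes a taurine precursor, was chosen here after its values were seen. It read 5.50, 7.42 and 6.42 in ND, 5.37, 4.23 and 3.71 in HFD and 3.67, 4.05 and 3.73 in PRF 50 mice and missed the threshold between PRF 50 and ND, at -2.63 (adjusted p = 0.0544). Of the 41 enzymes tested between PRF 50 and ND, Ethe1 was the 1 called, and 7 had an unadjusted p under 0.05.

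**Figure D4:**
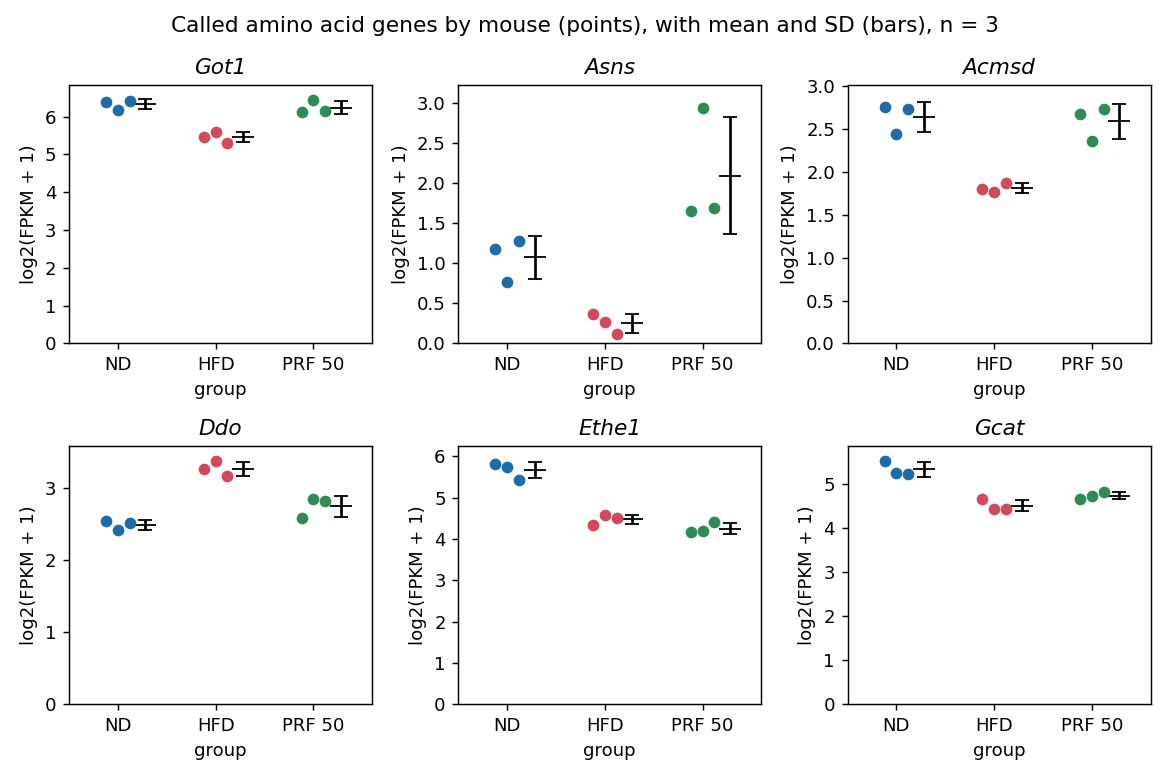
Level of 6 called amino acid genes in every mouse on the log2(FPKM + 1) scale, with points for mice and bars for the mean and SD of 3 mice. Got1, Acmsd and Asns are lowest in HFD mice, Ddo is highest in HFD mice, and Ethe1 and Gcat are highest in ND mice.

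Bbox1 (carnitine synthesis) and Odc1 (polyamine synthesis) were the other enzymes called between PRF 50 and HFD. Bbox1 read 6.80, 6.77 and 6.86 in ND, 7.23, 7.10 and 7.15 in HFD and 6.39, 6.57 and 6.72 in PRF 50 mice and fell by 0.60 from HFD to PRF 50 (adjusted p = 0.0348). Odc1 read 4.52, 4.15 and 4.52 in ND, 4.98, 4.998 and 4.94 in HFD and 4.52, 4.43 and 4.62 in PRF 50 mice and fell by 0.45 (adjusted p = 0.0363). For Odc1 the HFD mice were the highest group, and for Bbox1 the PRF 50 mice were the lowest.

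Of 22 genes of branched-chain amino acid breakdown, 21 were tested between PRF 50 and HFD, 2 were called, both lower, and 13 had an unadjusted p under 0.05 (61.9%, against 20.2% of all genes). The log2 fold change was negative for 17 of 21 (15 of 21 with quantile normalization), and the median was -0.23 where that of all tested genes was -0.015. With quantile normalization it was -0.14, the value nearest 0 of its alternatives. Mccc1, a leucine enzyme, read 4.32, 4.29 and 4.28 in ND, 4.39, 4.32 and 4.54 in HFD and 3.95, 4.01 and 3.92 in PRF 50 mice and fell by 0.46 from HFD to PRF 50 (adjusted p = 0.0409). All PRF 50 mice lay below all HFD mice. None of the 21 was called by limma for HFD vs ND or PRF 50 vs ND, with 5 in each at an unadjusted p under 0.05.

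Of 29 amino acid transport genes, 21 were tested between PRF 50 and HFD, 2 were called, both higher, and 8 (38.1%, against 20.2% of all genes) had an unadjusted p under 0.05. Slc16a10, a carrier of aromatic amino acids, read 4.38, 4.19 and 4.07 in ND, 4.14, 3.91 and 4.03 in HFD and 4.59, 4.69 and 4.58 in PRF 50 mice, with all PRF 50 mice above all others, and was higher by 0.59 (adjusted p = 0.0249). Slc7a8, an exchanger of neutral amino acids, was low but also highest in PRF 50 mice, at 0.65, 0.95 and 0.73 in ND, 0.49, 0.45 and 0.77 in HFD and 1.61, 1.34 and 1.33 in PRF 50 mice. It was higher by 0.85 in PRF 50 than in HFD mice (adjusted p = 0.0300). Slc7a8 passed the minimum through the PRF 50 group alone (mean 1.70 FPKM, against 0.494 in HFD mice), so its call is given as a description. In PRF 50 vs HFD, 17 of 21 transport genes had a positive log2 fold change, as with quantile normalization, Slc7a8 among them, and the median was 0.15 (0.11 to 0.31 over the alternatives). Slc1a4, at 0.064, was also counted there and passed the minimum through the PRF 50 group alone (mean 1.09 FPKM, against 0.960 in HFD mice). Between HFD and ND 14 of 19 had a negative one (median -0.18, in a range of -0.23 to -0.089), limma called 0, and 2 had an unadjusted p under 0.05. Between PRF 50 and ND limma called 0 of 20, with 4 at an unadjusted p under 0.05.

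Among 20 genes of hormone and transcription control, 19 were tested and G6pc was called between PRF 50 and HFD, with 2 at an unadjusted p under 0.05. G6pc (glucose-6-phosphatase, the last step of glucose output) read 6.17, 5.75 and 6.70 in ND, 6.20, 5.91 and 6.70 in HFD and 3.26, 4.76 and 4.23 in PRF 50 mice. All PRF 50 mice lay below all others, and G6pc fell by 2.19 from HFD to PRF 50 (adjusted p = 0.0321). No gene of this list was called by limma for HFD vs ND or PRF 50 vs ND (4 and 2 at an unadjusted p under 0.05). The glucagon receptor Gcgr, chosen after its values were seen, read 6.55, 6.45 and 6.17 in ND, 6.57, 6.51 and 6.40 in HFD and 6.51, 6.54 and 6.40 in PRF 50 mice and was not called in PRF 50 vs HFD, at -0.013 (adjusted p = 0.957).

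The urea cycle and histidine enzymes are known to be richest in periportal hepatocytes, so lists of periportal and pericentral genes were read beside them. Of 14 tested periportal genes, Cdh1 and Apoa4 were called, and an unadjusted p under 0.05 was seen for 5 between PRF 50 and HFD (20.2% of all genes) and for 6 in the diet comparison (15.1%). Cdh1 (E-cadherin, which joins epithelial cells) read 2.81, 2.96 and 2.36 in ND, 2.24, 1.74 and 1.55 in HFD and 3.44, 3.25 and 3.54 in PRF 50 mice, and all PRF 50 mice lay above all others. It was higher by 1.57 in PRF 50 than in HFD mice (adjusted p = 0.0147). Apoa4, an apolipoprotein known to rise with fat in the liver, read 6.56, 5.88 and 6.81 in ND, 9.52, 9.72 and 8.58 in HFD and 6.61, 7.54 and 7.37 in PRF 50 mice, and all HFD mice lay above all others. It was higher by 2.86 in HFD than in ND mice (adjusted p = 0.0110) and fell by 2.10 from HFD to PRF 50 (adjusted p = 0.0299). The periportal median was 0.041 for HFD vs ND and 0.053 for PRF 50 vs HFD, but its size and sign depended on the setting (-0.14 to 0.23 and -0.0030 to 0.15, with 0.18 and 0.13 under quantile normalization). Of 16 pericentral genes, Aldh3a2, a fatty aldehyde dehydrogenase, was the 1 called, with 4 (25%) at an unadjusted p under 0.05 in each of these comparisons. It read 7.09, 6.97 and 6.80 in ND, 7.60, 7.81 and 8.14 in HFD and 6.31, 6.69 and 6.24 in PRF 50 mice, so that the 3 groups did not overlap. It was higher by 0.90 in HFD than in ND mice (adjusted p = 0.0452) and fell by 1.44 from HFD to PRF 50 (adjusted p = 0.0150). The pericentral median was 0.11 for HFD vs ND (0.023 to 0.18 over the alternatives) and -0.016 for PRF 50 vs HFD (-0.13 to 0.14, with 0.025 under quantile normalization). In neither list did limma call a gene between PRF 50 and ND, where 6 of 15 periportal and 3 of 16 pericentral genes had an unadjusted p under 0.05.

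Most calls in the related lists depended on single mice. All 12 calls in PRF 50 vs HFD ended without HFD mouse 2 (adjusted p 0.0572 to 0.153) or without HFD mouse 3 (0.0529 to 0.132). Without PRF 50 mouse 3 the calls of all 11 genes then tested ended (0.0520 to 0.110). Of the 12 calls, 8 ended without HFD mouse 1 (0.0512 to 0.0952), 9 without PRF 50 mouse 10 (0.0501 to 0.0915) and 6 without PRF 50 mouse 9 (0.0530 to 0.0815), and the signs held in all these cases. With no minimum level 9 of the 12 calls ended and with quantile normalization 5. Between HFD and ND 6 genes were called, and the call of Ethe1 held in all 12 alternatives and that of Apoa4 in 11. With no minimum level 5 of the 6 calls ended (all but Ethe1, adjusted p 0.0505 to 0.102), and with quantile normalization that of Aldh3a2 did (0.0566). Acmsd, Aldh3a2, Ddo and Gcat also lost their calls without HFD mouse 2 (all 4), HFD mouse 3 (all 4), ND mouse 6 (Acmsd, Aldh3a2 and Gcat), ND mouse 7 (Aldh3a2, Ddo and Gcat) or ND mouse 9 (Acmsd and Aldh3a2), at adjusted p values of 0.05001 to 0.154. Between PRF 50 and ND the call of Ethe1 ended without ND mouse 7 (0.0734) or PRF 50 mouse 3 (0.0618).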

How the data were processed

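The deposited tables held log2(FPKM + 1) values, 1 column per mouse; the pseudocount of 1 was inferred from the lowest values and exact zeros. The authors used FASTX_Trimmer and BBMap for trimming, TopHat for mapping to mm10 and Cufflinks for FPKM values, and applied a geometric normalization credited to edgeR. Versions were not given in the sources used here. Each comparison was fitted over its 6 mice with limma 3.58.1 in R 4.3.3 (lmFit, then eBayes with a trend) on genes that averaged 1 FPKM or more, and p values were adjusted over all of them by the Benjamini-Hochberg method. The tests are two-sided. The members and lists were chosen with earlier results of these data known. Values of every mouse are given for members called in at least 1 comparison, for the 5 with the largest absolute log2 fold change in each comparison and for the entry gene of each route. From related lists the called genes are named, at most 5 for each list and comparison. Other genes given with values were chosen after these were seen. Gene positions came from GENCODE vM21 and promoter windows from RefSeq. Some related lists share genes, such as Glul and Oat. Values of 1 member and of 1 gene of a related list are not reported here, although both are included in counts and medians.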

Additional observations from a re-analysis of the deposited data

How the results depend on the processing

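Each comparison was refitted under 12 alternatives: all 9 mice in 1 fit, no minimum level, a pseudocount of 0.1, a minimum of 10 FPKM, quantile normalization, eBayes without a trend, and leaving out each of 6 mice in turn. Of the log2 fold changes of the 17 named members tested under these alternatives, 566 kept their sign and their side of the threshold, 15 lost a call, 2 gained one and 14 turned in sign. Of those of the named related genes, 375 kept both, 98 lost a call, 3 gained one and 4 turned in sign.

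The number of members called higher between PRF 50 and HFD went from 2 to 1 with no minimum level and to 1 with a minimum of 10 FPKM, which left Asns out, and ranged from 0 to 1 when single mice were left out. The number called lower between HFD and ND went from 1 to 0 with no minimum level, and ranged from 0 to 2 when single mice were left out. With quantile normalization 1 member was called higher between HFD and ND. With no minimum level more genes were tested, and without a mouse the fit had fewer samples. The cause of the change under quantile normalization was not tested.

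Signs are given here for the named genes only. With quantile normalization they turned for PRF 50 vs HFD in Amdhd1 (0.11) and Prodh (0.011). For PRF 50 vs ND they turned in Tdo2 (0.0087), Bhmt (0.030), Got1 (0.052) and Aass (0.047). When single mice were left out, the log2 fold change ranged from -0.12 to 0.10 for Amdhd1 in PRF 50 vs HFD and from -0.17 to 0.31 for G6pc in HFD vs ND. For PRF 50 vs ND it ranged from -0.23 to 0.068 for Tdo2, from -0.0030 to 0.44 for Mat1a, from -0.35 to 0.20 for Bhmt, from -0.029 to 0.10 for Prodh and from -0.15 to 0.063 for Acmsd. None of these values was called, and the cause was not tested.

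The number of all genes called varied as well. Between PRF 50 and HFD it was 362, and 15 to 242 when single mice were left out. Between HFD and ND it was 133, and 35 to 140, and between PRF 50 and ND it was 46, and 4 to 71. With no minimum level the counts were 126, 37 and 11, and with all 9 mice in 1 fit they were 376, 134 and 107. No paired analysis was possible because the animal numbers do not pair the groups. Read counts were not analysed here, so the counting error of low values such as those of Asns is unknown.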
